A study of Rattus norvegicus with 2 samples.

Results

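The neurosteroid synthesis genes considered here are Star, Cyp11a1, Cyp17a1, Cyp19a1, Srd5a1, Tspo, Cyp7b1, Hsd11b1 and Hsd17b4. They were matched by gene name, from a list of steroid-handling genes drawn up with earlier results of these data known, and all 9 of 9 were found among the 22777 genes of the mRNA table. RNA-seq was performed on hypothalamic tissue of female Sprague Dawley rats before puberty (postnatal day 25) and at first estrus (postnatal day 35). There was no treatment or allele apart from age. Hypothalamic tissue of 3 rats was collected at each stage. The tables have a single column for either stage, and the sources used here do not say whether RNA or values of the rats were pooled. Each stage was therefore treated as 1 library, differences between the stages have no replicate check, and no p-value is given.

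Neurosteroids are steroids made or modified within the brain. Cholesterol is carried into the mitochondrion, where Cyp11a1 cuts its side chain to give pregnenolone, and Cyp17a1, 3β- and 17β-hydroxysteroid dehydrogenases, aromatase and 5α-reductase turn pregnenolone into progestins, androgens, estrogens and reduced steroids that act on GABA-A receptors. In the hypothalamus, locally made estradiol and the reduced progestins are known for acting on the neurons that govern gonadotropin release, and much of the steroid reaching these neurons comes from the gonads and adrenals.

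The promoters of 3 of the 9 genes (Cyp11a1, Srd5a1 and Hsd17b4) were in the RefSeq promoter table of the GRCr8 build. Star, Cyp17a1, Cyp19a1, Tspo, Cyp7b1 and Hsd11b1 were not in it. The 250 bases before the start of Cyp11a1 and Srd5a1 are shown as an example of a gene at the limit of detection and of one expressed in both libraries. Both lie on the plus strand and are written 5′ to 3′. Capitals mark GGGCGG, the GC box bound by Sp1 family factors, and AGGTCA, a half-site of nuclear receptors, each searched on both strands, and no marked sites overlap. The Cyp11a1 window is chr8:67318415-67318664 and the Srd5a1 window chr1:35514664-35514913.
Cyp11a1: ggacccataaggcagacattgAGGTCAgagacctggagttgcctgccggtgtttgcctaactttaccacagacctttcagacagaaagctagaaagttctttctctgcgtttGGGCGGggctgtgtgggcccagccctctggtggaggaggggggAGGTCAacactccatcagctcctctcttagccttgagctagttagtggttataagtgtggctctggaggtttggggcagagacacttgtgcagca
Srd5a1: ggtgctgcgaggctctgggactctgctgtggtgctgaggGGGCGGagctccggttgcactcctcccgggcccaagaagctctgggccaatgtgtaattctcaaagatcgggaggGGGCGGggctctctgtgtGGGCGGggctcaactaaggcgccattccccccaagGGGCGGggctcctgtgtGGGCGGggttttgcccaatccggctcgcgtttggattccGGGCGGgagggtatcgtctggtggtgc

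The Cyp11a1 window holds 1 GC box, 2 half-sites and 3 CpG dinucleotides, whereas the Srd5a1 window holds 6 GC boxes, 0 half-sites and 16 CpG dinucleotides. The window of Hsd17b4, the gene with the highest level of the 9, holds 2 GC boxes, 1 half-site and 10 CpG dinucleotides. A GC box was present in 30.5% of the 33469 windows of this length in the table and a half-site in 14.1%, and the median number of CpG dinucleotides was 5. Of the 6567 genes of the mRNA table whose window holds a GC box, 86.2% had a mean of at least 1 FPKM over both libraries, against 60.5% of the 6451 genes whose window holds none. These matches describe the letters in the windows and are not shown to be bound.

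Levels are given as FPKM, a fragment count scaled for transcript length and for the depth of the library, so that levels can be compared between genes. Low FPKM values came in steps worth 1 fragment each. Of the values up to 10 fragments among genes with 1 transcript of at least 1000 nt, 96.9% lay within 0.1 of a whole number in each library. The steps correspond to a depth of 20650000 fragments before puberty and 16200000 at puberty, so that 1 fragment on a transcript of 2000 nt was worth 0.0277 and 0.0354 FPKM. Intervals below are exact Poisson intervals (95%) of these fragment numbers and cover counting error alone, not the spread between rats. The tissue label was checked against 14 hypothalamic genes, and all 14 were above 0 in both libraries, including the peptide genes Pmch at 1675 and 2723 FPKM, Oxt at 411 and 686 FPKM and Avp at 254 and 240 FPKM. The sum of 6 cortical and telencephalic markers was 34.1 FPKM before puberty and 17.1 FPKM at puberty, with Slc17a7, the cortical glutamate transporter, at 26.2 and 12.8 FPKM and Neurod6 at 5.08 and 2.36 FPKM. Of these 6 markers, 2 were higher and 4 lower, 2 of the lower ones past 1.5-fold, and all were above 0 in both libraries. In bulk tissue, fewer cells of a type and less RNA per cell cannot be told apart.

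The 9 genes spanned from 0 to 69.2 FPKM, and their order was the same in both libraries, except that Cyp11a1 and Cyp17a1 were tied at 0 before puberty. Hsd17b4 (ENSRNOG00000015840), the peroxisomal multifunctional enzyme that oxidizes estradiol and also shortens very long chain fatty acids, was highest at 64.03 FPKM before puberty (interval 61.8 to 66.3) and 69.2 FPKM at puberty (66.6 to 71.9). It lay above 91.9% and 92.3% of all genes. Hsd11b1 (ENSRNOG00000005861), which regenerates active glucocorticoid, had 40.6 FPKM (38.9 to 42.4) and 44.04 FPKM (42.001 to 46.2). Cyp7b1 (ENSRNOG00000009730), the oxysterol and neurosteroid 7α-hydroxylase, had 18.8 FPKM (17.6 to 20.04) and 18.2 FPKM (16.9 to 19.6). These genes that convert or inactivate steroids were the 3 most abundant of the 9 in both libraries.

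Next in level were the reductase of ring A and the genes of cholesterol delivery. Srd5a1 (ENSRNOG00000017601), the 5α-reductase that acts on progesterone and testosterone, had 8.99 FPKM before puberty (8.17 to 9.87) and 7.49 FPKM at puberty (6.64 to 8.40). Tspo (ENSRNOG00000010549), the outer mitochondrial translocator protein, had 5.03 FPKM (3.85 to 6.46) and 6.27 FPKM (4.81 to 8.12). Srd5a1 and Tspo were thus apart before puberty, while at puberty their intervals overlapped. Star (ENSRNOG00000015052), which delivers cholesterol to the inner mitochondrial membrane, had 1.23 FPKM (0.978 to 1.53) from 80 fragments and 1.28 FPKM (0.986 to 1.63) from 65 fragments. Star lay above 40.7% and 41.2% of all genes, a rank that includes the many genes at 0.

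The cytochromes P450 that open the pathway and make estrogen were the lowest of the 9. Cyp19a1 (ENSRNOG00000000196), aromatase, had 0.572 FPKM before puberty (0.379 to 0.837) from 27 fragments and 0.542 FPKM at puberty (0.332 to 0.838) from 20 fragments. Cyp11a1 (ENSRNOG00000008074), the side-chain cleavage enzyme, was listed at 0 before puberty and at 0.0810 FPKM at puberty, which corresponds to 2 fragments (0.00983 to 0.293 FPKM). Cyp17a1 (ENSRNOG00000020035), the 17α-hydroxylase and 17,20-lyase, was listed at 0 in both libraries. A count of 0 allows up to 3 fragments as a one-sided 95% limit, unlike the two-sided intervals given elsewhere, or 0.0955 FPKM for Cyp11a1 before puberty and 0.0992 and 0.126 FPKM for Cyp17a1 in the prepubertal and pubertal libraries. Cyp11a1 and Cyp17a1 could not be ranked at this depth, and no fold is given for them. All other neighbours in the order, apart from Srd5a1 and Tspo at puberty, had intervals that did not overlap.

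**Figure D1:**
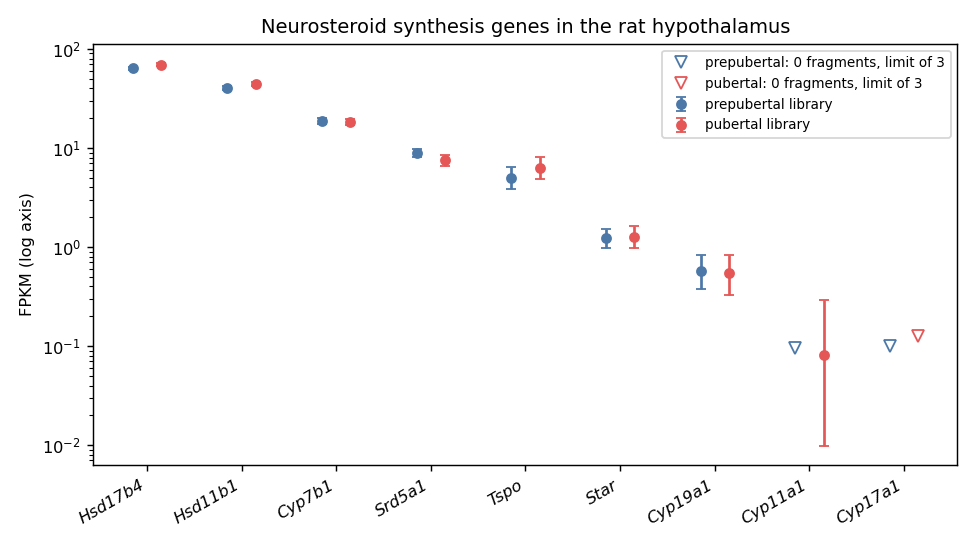
FPKM (log axis) of the 9 neurosteroid synthesis genes in the prepubertal and pubertal libraries, ordered by the pubertal level. Points are the single value of each library, bars are 95% Poisson counting intervals, and open triangles mark the limit of 3 fragments where a gene had 0; the paired points of each gene lie close to each other, from 64.03 and 69.2 FPKM for Hsd17b4 down to the limit for Cyp17a1.

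**Figure D2:**
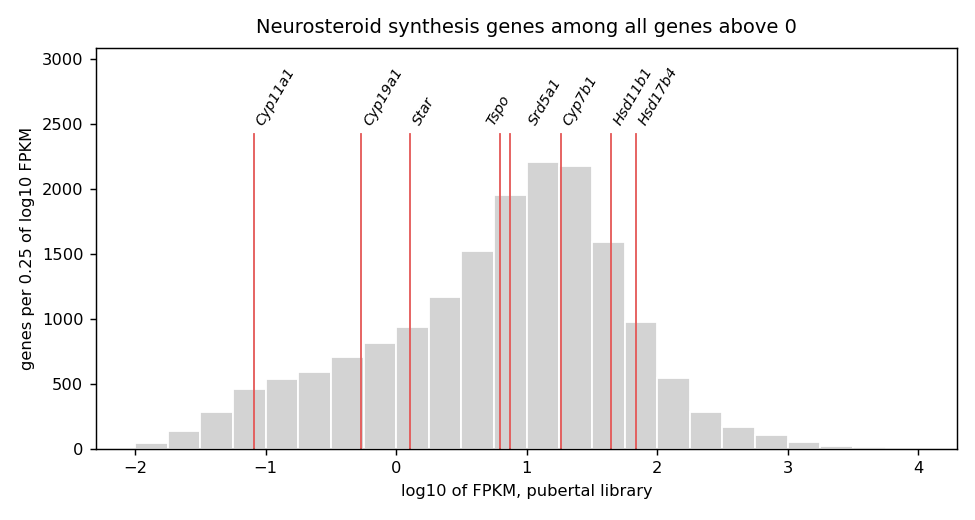
Number of genes per 0.25 of log10 FPKM in the pubertal library, for genes above 0 (bars, with values under 0.01 FPKM counted in the lowest bar), and the level of each of the 8 neurosteroid synthesis genes above 0 (lines). Hsd17b4, Hsd11b1 and Cyp7b1 lie at or above the peak of the distribution, and Star, Cyp19a1 and Cyp11a1 in its lower tail.

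The comparison of the stages asked whether the genes that make and convert steroids in the hypothalamus differ between a prepubertal and a pubertal rat. A gene was called past the threshold when FPKM + 1 differed at least 1.5-fold. Of the 9 genes, 0 were called, where 3.29% of all genes were called, 1.43% higher and 1.86% lower at puberty. At 2-fold, 0 of the 9 genes and 0.681% of all genes were past the threshold. On the log2 scale of FPKM + 1, pubertal over prepubertal, the 9 genes had a median difference of 0.03, and all genes a median of 0. The differences ranged from -0.23 for Srd5a1 to 0.27 for Tspo, with 5 genes above 0, 3 below and Cyp17a1 at 0. The addition of 1 FPKM draws the differences of low genes towards 0, so ratios of FPKM without it are given next.

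Among the 7 genes with fragments in both libraries, the FPKM ratio, pubertal over prepubertal, lay between 0.834 and 1.25. For Srd5a1 it was 0.834 with a counting interval of 0.716 to 0.97, from 438 fragments before puberty and 286 at puberty. Srd5a1 was the 1 gene of the 7 whose interval lay below 1, but its log2 difference of FPKM + 1 turned from -0.23 to 0.13 once Actb, the reference gene of the study's quantitative PCR, was made equal. That scaling moved the median over all genes above 0 in both libraries to 0.32, so relative to other genes Srd5a1 stayed lower. The telencephalic markers were lower in the pubertal library as well, and their part in the value of Srd5a1 was not tested. For Hsd17b4 the ratio was 1.08 (1.03 to 1.14) from 3081 and 2612 fragments. For Hsd11b1 it was 1.08 (1.02 to 1.16) from 2111 and 1730 fragments. The Hsd11b1 interval takes the estimated split of fragments between its 2 transcripts as given. Its longer transcript, with 1546 and 1217 of these fragments, had 19.1 and 19.2 FPKM, so whether the interval leaves out 1 can depend on that split. The intervals of Srd5a1, Hsd17b4 and Hsd11b1, 3 of 7 genes, left out 1. So did those of 37.4% of the 15853 genes with fragments in both libraries and no transcript under 500 nt. By direction, 16.6% of the 15853 were higher and 20.8% lower. Such intervals compare the libraries, not the stages, and the count of 3 of 7 is near the background.

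For the other 4 genes the interval held 1. The ratio of Cyp7b1 was 0.971 (0.879 to 1.07), and at 920 and 701 fragments its counting error was small. Star had a ratio of 1.04 (0.737 to 1.46) and Cyp19a1 of 0.947 (0.503 to 1.75), so that at this depth a 1.5-fold difference of aromatase in either direction lies within the counting error. Tspo had the largest ratio at 1.25 (0.859 to 1.81), on 61 and 60 fragments of a transcript of 841 nt. Tspo is known to be made by microglia, astrocytes and endothelium. Of 11 microglial markers, 10 were higher and 1 lower in the pubertal library, with sums of 335 and 393 FPKM, a median log2 difference of 0.18, and 0 markers past 1.5-fold or at 0. Of 7 astrocyte markers, 4 were higher and 3 lower, with a median of 0.00 and sums of 1921 and 1836 FPKM. Of 6 endothelial markers, 1 was higher and 5 lower, with a median of -0.18 and sums of 112 and 102 FPKM. All markers of both lists were above 0, and each list held 1 marker past 1.5-fold, both lower at puberty: Gja1 with 106 and 66.3 FPKM among the astrocyte markers and Kdr with 2.60 and 1.38 FPKM among the endothelial ones. Whether these cells have a part in the value of Tspo was not tested.

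**Figure D3:**
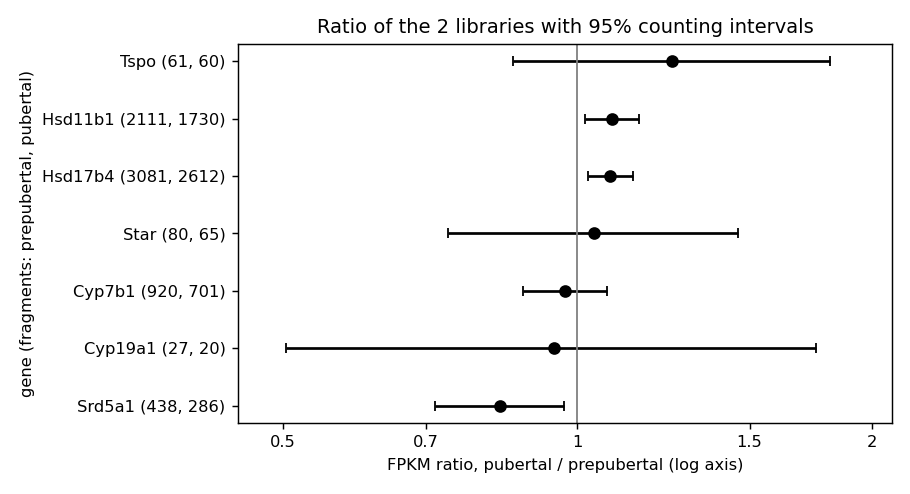
Ratio of FPKM, pubertal over prepubertal library (log axis), for the 7 genes with fragments in both libraries, with 95% exact binomial counting intervals as bars and the numbers of fragments beside each name. Srd5a1 lies below 1 at 0.834 (above 1 only with equal Actb), Hsd17b4 and Hsd11b1 slightly above 1 at 1.08, and the bars of the other 4 genes cross 1. The Hsd11b1 bar takes the estimated split of fragments between its transcripts as given.

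Hsd11b1 was the 1 gene of the 9 with more than 1 listed transcript. The transcript of 1529 nt (ENSRNOT00000007870) went from 21.5 to 24.8 FPKM, and that of 4164 nt (ENSRNOT00000048074) had 19.1 and 19.2 FPKM. The shorter transcript made up 52.9% of the FPKM of the gene before puberty and 56.4% at puberty. The fragments of overlapping transcripts were divided between them by the authors' software, so the split is an estimate.

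With only 2 libraries, a pattern is a pair of levels. The genes nearest to Hsd17b4 in log2(FPKM + 1) of both libraries were Zfp483, at 63.4 and 69.3 FPKM, and Galnt1, at 64.6 and 69.5 FPKM, at distances of 0.0143 and 0.0145. For Tspo, the gene with the largest log2 difference of the 9, they were Ccdc130, at 5.01 and 6.25 FPKM, and LOC100909526, at 5.02 and 6.24 FPKM.

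The wider pathway was described with 7 gene lists, of which 81 genes were matched. Of these 81, 1 was past 1.5-fold, Akr1c14, and 0 were past it in the other direction, again beside 3.29% of all genes. Their median log2 difference was 0, with 40 genes above 0 and 33 below.

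Cholesterol delivery had the highest summed level of the 7 lists, 1486 and 1522 FPKM. All 13 genes of this list were at 1 FPKM or more on average, and 0 were past 1.5-fold, with a median log2 difference of 0.08. Dbi, which encodes the diazepam binding inhibitor that binds Tspo, had 991 and 1059 FPKM. Vdac1, the outer mitochondrial channel, had 302 and 278 FPKM, and Npc2, which moves cholesterol out of lysosomes, 96.2 and 83.3 FPKM. The largest log2 difference in the list was that of Stard5, a cholesterol-binding relative of Star, from 3.93 to 6.18 FPKM (0.54). Fdx1 and Fdxr, which pass electrons to the mitochondrial P450 enzymes, had 17.3 and 18.3 FPKM and 5.87 and 7.57 FPKM, so the electron donors of Cyp11a1 were well above Cyp11a1 itself in these libraries.

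Of the 12 matched P450 genes and electron donors, 5 reached a mean of 1 FPKM and 0 were past 1.5-fold, with a median log2 difference of -0.01. The highest were Cyb5a, cytochrome b5, at 108 and 128 FPKM, Cyp46a1, the neuronal cholesterol 24-hydroxylase, at 49.4 and 36.3 FPKM, and Por, the reductase of microsomal P450 enzymes, at 43.2 and 36.6 FPKM. Cyp46a1 had the largest log2 difference of this list at -0.44. Cyp46a1 is also expressed in cortex, and 4 of 6 cortical and telencephalic markers were lower in the pubertal library. Lower too were 6 of 7 neuronal markers, with a median of -0.09, 0 past 1.5-fold and sums of 2476 and 2335 FPKM. Of 6 thalamic markers, 5 were lower, with a median of -0.35, Gbx2 past 1.5-fold at 4.29 and 2.24 FPKM, and sums of 485 and 504 FPKM. All markers of these lists were above 0, and their part in the value of Cyp46a1 was not tested. Cyp21a1, which leads to corticosteroids, rested on 6 and 7 fragments. The aldosterone synthase Cyp11b2 rested on 9 and 17 fragments and its relative Cyp11b3 on 7 and 3. Cyp11b2 and Cyp11b3 are similar in sequence, and their values are uncertain.

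Of the 15 matched 3β- and 17β-hydroxysteroid dehydrogenase genes, 7 reached a mean of 1 FPKM and 0 were past 1.5-fold, with 7 genes higher, 6 lower and a median log2 difference of 0. The difference farthest from 0 was that of Hsd17b14, with 9 and 2 fragments. Hsd3b1, a 3β-hydroxysteroid dehydrogenase that turns pregnenolone into progesterone, had 0 fragments before puberty and at most 1 at puberty, and Hsd3b5 was listed at 0 in both libraries. As near copies of one family they can share fragments, and Hsd3b2, Hsd3b3 and Hsd3b6 were not analysed here. Hsd3b7, which acts in bile acid synthesis, had 8.95 and 8.63 FPKM. Hsd17b1, which makes estradiol from estrone, rested on 12 and 7 fragments, and Hsd17b3, which makes testosterone in the testis, on 1 and 0. Hsd17b6 was listed at 0 in both libraries. Hsd17b7, known from estradiol and cholesterol synthesis, had 6.34 and 5.04 FPKM from 182 and 114 fragments. The highest genes of this list besides Hsd17b4 were Hsd17b12, which elongates fatty acids, at 108 and 113 FPKM, and Hsd17b10, a mitochondrial enzyme with steroid and fatty acid substrates, at 71.1 and 81.4 FPKM.

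The enzymes that reduce ring A held the 1 gene past the threshold. Akr1c14, the 3α-hydroxysteroid dehydrogenase that follows 5α-reductase in the synthesis of allopregnanolone, had 4.53 FPKM before puberty from 191 fragments and 2.68 FPKM at puberty from 89. Its FPKM ratio was 0.592 (counting interval 0.455 to 0.766) and its log2 difference of FPKM + 1 was -0.59, barely past the threshold of 0.585 and short of it when the libraries were scaled to equal medians (-0.55), equal upper quartiles (-0.58) or equal Actb (-0.28). All 6 markers of fibroblasts and meninges were lower in the pubertal library, with sums of 75.6 and 52.1 FPKM, a median log2 difference of -0.40, 2 markers past 1.5-fold and 0 at 0, and their part in the value of Akr1c14 was not tested. The other genes of the 5α-reductase family had lower values at puberty too. Srd5a3 had 3.35 and 2.62 FPKM (ratio 0.782, 0.529 to 1.14, which holds 1) and Srd5a2 had 5 fragments and 1. Thus 4 genes of this list, Akr1c14, Srd5a1, Srd5a2 and Srd5a3, were lower in the pubertal library, of which 1 was past 1.5-fold. With equal Actb, Srd5a1 and Srd5a3 turned to 0.13 and 0.04. These 4 were singled out after their values were seen, and the other 5 genes of the list above 0 were higher, among them the 5β-reductase Akr1d1, with 0 and 2 fragments, and Akr1c3, with 0 and 1. Akr1c1 and Akr1c2 were listed at 0, and since the Akr1c genes are similar in sequence their values are uncertain. H6pd, which supplies the cofactor of Hsd11b1, had 2.49 and 3.01 FPKM, and Hsd11b2, which inactivates glucocorticoid, 0.42 and 0.612 FPKM from 14 and 16 fragments. Over the 11 matched genes of this list the median log2 difference was 0.

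Of the 7 matched genes of steroid sulfation, 0 were past 1.5-fold, with a median log2 difference of 0 and 3 genes higher and 2 lower. Papss1, which makes the sulfate donor, had 77.3 and 87.7 FPKM, Sult1a1 12.7 and 14.3 FPKM and Papss2 7.31 and 6.80 FPKM. The sulfatase Sts had 2.52 and 2.96 FPKM. The steroid sulfotransferases Sult1e1 and Sult2a1 were listed at 0 in both libraries, whereas Sult2b1 had 2.24 and 1.78 FPKM from 69 and 44 fragments.

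Of the 17 receptor genes, all were above 0 and 0 were past 1.5-fold, with a median log2 difference of 0.03. The highest by the mean of both libraries were Pgrmc1, a membrane-associated progesterone-binding protein, at 364 and 373 FPKM, Nr3c1, the glucocorticoid receptor, at 102 and 98.0 FPKM over its 2 entries, and Paqr7, a membrane progestin receptor, at 50.5 and 59.2 FPKM. The nuclear receptors of estradiol and progesterone were lower in level. Esr1 had 1.86 and 2.21 FPKM with a ratio of 1.19 (0.836 to 1.68), and Esr2 0.925 and 1.56 FPKM with a ratio of 1.68 (1.07 to 2.67) on 36 and 48 fragments. Pgr had 4.51 and 5.64 FPKM, a ratio of 1.25 (1.05 to 1.49). These 3 receptors were higher in the pubertal library without passing the threshold, and they were singled out from a list in which 10 genes were higher and 7 lower. The difference farthest from 0 in the list went the other way, in the membrane progestin receptor Paqr9, with 5.90 and 3.68 FPKM and a ratio of 0.625 (0.439 to 0.878). Of the 14 hypothalamic genes, 12 were higher there as well, with sums of 2821 and 4259 FPKM, a median log2 difference of 0.31, 3 past 1.5-fold and 0 at 0. Of 7 pituitary markers, 5 were higher, with sums of 31.8 and 44.5 FPKM and a median of 0.27. Past 1.5-fold were 2 of them, Gh1 with 0.872 and 4.09 FPKM and Prl with 0 and 3.40 FPKM, and Fshb was also at 0 before puberty. The part of either marker list in the receptor values was not tested.

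Of the 6 transcription factors of steroidogenic cells, 0 reached a mean of 1 FPKM and 0 were past 1.5-fold, with a median log2 difference of -0.02. Nr0b1 had 0.822 and 0.847 FPKM, Nr5a1, the steroidogenic factor that also marks the ventromedial hypothalamus, 0.675 and 0.895 FPKM, and Nr5a2 0.418 and 0.305 FPKM. Gata4 was listed at 0 in both libraries. Of 7 matched markers of adrenal cortex and gonad, Insl3 and Lhcgr were listed at 0 in both libraries, and the list summed to 6.22 and 5.91 FPKM, of which Inha took 5.82 and 5.27 FPKM.

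**Figure D4:**
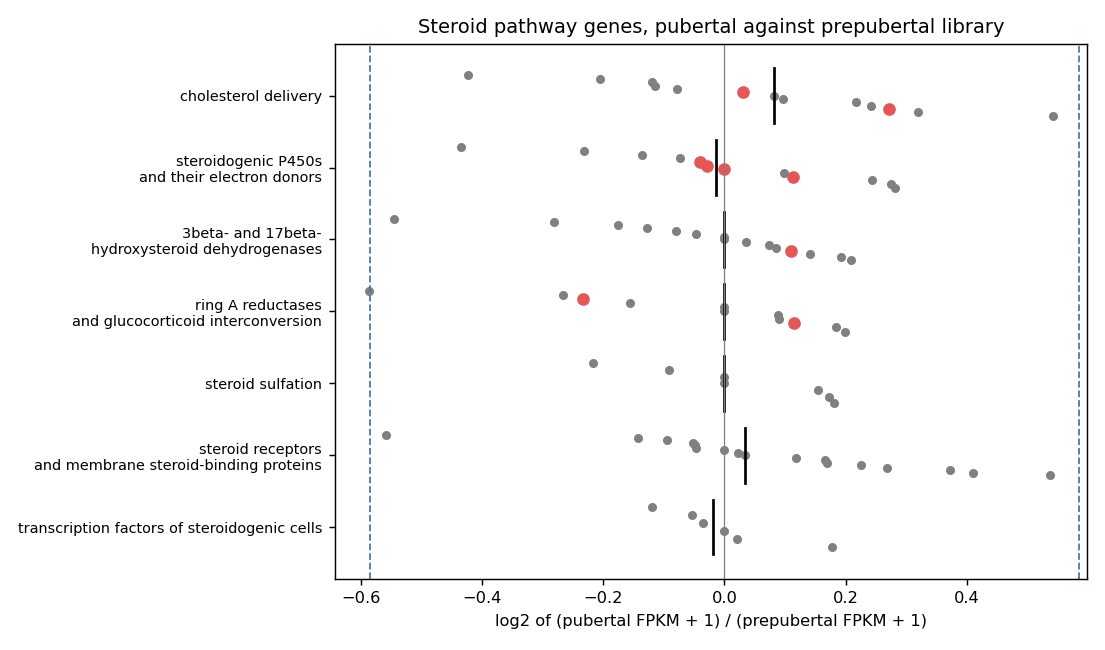
Difference of log2(FPKM + 1), pubertal minus prepubertal library, for the genes of 7 steroid pathway lists. Each point is 1 gene, red points are neurosteroid synthesis genes from the set of 9, black bars are list medians and dashed lines mark 1.5-fold; the list medians lie between -0.02 and 0.08, and Akr1c14 is the 1 gene just past a dashed line.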

How the data were processed

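The authors removed ribosomal RNA, sequenced strand-specific libraries in paired ends, mapped them with TopHat, built transcripts with Cufflinks 2.1.1 and Scripture, and estimated FPKM per transcript with Cuffdiff 2.1.1. Per the labels the build was Rnor_5.0, whereas the methods name a later annotation. The deposited values are FPKM, already scaled by the authors for depth and transcript length. Their comparison table also holds log2 ratios, p-values and q-values, which were not used. It gave gene names, lengths and, for an alternative, its FPKM, and the lncRNA tables were not used.

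FPKM were summed over the transcripts of a gene (in the lists, per symbol), and log2((pubertal + 1) / (prepubertal + 1)) was computed with a pseudocount of 1 and no filter. The value of 1 fragment was found by fitting whole steps to low FPKM of 13897 genes with 1 transcript of at least 1000 nt. On simulated data for the prepubertal library with these 13897 genes, depth was recovered in 6 of 6 cases. Depth was 20650000 and 16200000 fragments, with an effective length shortened by 255 nt. Intervals are exact Poisson or Clopper-Pearson intervals at 95% and cover counting error only, as PCR copies are not independent. For genes with more than 1 transcript, such as Hsd11b1, they take the estimated split of fragments between transcripts as given. With 1 library per stage no test was possible.

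The genes, lists and threshold were chosen with earlier results of these data known. From each pathway list the text names the 3 highest genes and those past the threshold. Beyond that rule it names genes chosen after their values were seen. In the marker lists, genes past the threshold are counted but not all are named. Symbols were matched by name, or by an older symbol of the RefSeq table for Sult1e1. Cyp11b1, Hsd3b2, Hsd3b3, Hsd3b6, Akr1c18 and Sult2a6 were not analysed here. Alternatives were a pseudocount of 0.1, scaling to equal medians, upper quartiles or Actb, the highest transcript, the FPKM of the comparison table (which differ for 13 transcripts), a mean of at least 1 FPKM and a 2-fold threshold. Scripts ran in Python 3.11.15 (scipy 1.17.1, pandas 2.3.3, numpy 2.4.6), with figures drawn in matplotlib 3.10.9. Values of some genes of the lists are not reported here.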

Additional observations from a re-analysis of the deposited data

How the results depend on the processing

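The count of 0 of the 9 genes past 1.5-fold stayed at 0 with libraries scaled to equal medians or upper quartiles, with the highest transcript, the comparison table, a mean of at least 1 FPKM and a 2-fold threshold. With a pseudocount of 0.1 it was 1 (Cyp11a1, on 2 fragments), and with equal Actb (pubertal values multiplied by 1.32) it was 1 (Tspo, at 0.63). Of the pathway genes, 1 past the threshold became 12 with a pseudocount of 0.1, 2 with equal medians (Stard5 and Paqr6), 0 with equal upper quartiles and 12 with equal Actb. The share of all genes past it was 12.7% with the pseudocount of 0.1 and 11.4% with equal Actb, which moved the median of genes above 0 in both libraries to 0.32. With equal Actb the differences of 3 of the 9 genes changed sign, Srd5a1 from -0.23 to 0.13, Cyp7b1 from -0.04 to 0.35 and Cyp19a1 from -0.03 to 0.13, and that of Cyp7b1 was also above 0 with equal medians, at 0.01. Split by direction, the 12 calls were 7 higher and 5 lower with the pseudocount of 0.1, and 12 higher and 0 lower with equal Actb. The median of the 9 genes ranged from 0.03 to 0.27. Depth estimated from other transcript lengths was 20550000 to 20700000 and 16200000 to 16250000 fragments. Hsd11b1 and Hsd17b4 were both at 0.51 with equal Actb. The counting intervals were computed for the unscaled FPKM ratio without a pseudocount, and they do not cover the choice of scaling. No paired analysis was possible because each stage has 1 library, and no replicate could be left out. Depth limits Cyp11a1, Cyp17a1 and Cyp19a1 most.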
